A study of Mus musculus with 6 samples.

Results

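Of the 23367 gene entries measured in developing mouse gastrocnemius, 71 had their highest levels at postnatal days 14 and 28 (PN14 and PN28) and lower levels both before and after. They were chosen by their measured values: the lowest of the PN14 and PN28 libraries had to reach 1 FPKM (fragments per kilobase of gene model scaled to the fragments on genes of the library) and 1.5 times the highest of the E18.5, PN2 and Adult libraries. Symbols that read as dates, 27 entries, were left out, and 10713 of the remaining entries reached 1 FPKM in both PN14 libraries and at PN28. Since the choice used every library, the height of the peak is given as a description and was not tested. The tissue was the whole gastrocnemius of wild type FVB mice without treatment, at embryonic day 18.5 (E18.5, 21 mice of both sexes pooled), at PN2 (6 male mice pooled), at PN14 (2 libraries, each from 1 male), at PN28 (1 male) and in the adult at 22 weeks (1 male). PN14 was thus the only stage with replicates, and each library was run on its own lanes, so that lane and stage cannot be told apart.

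The weeks after birth are the time in which limb muscle of the mouse exchanges its developmental myosins for adult fast myosins, builds the tubules and calcium store that couple excitation to contraction, and begins to bear the load of walking. Fast fibres are classed by their myosin heavy chain: IIa fibres carry the product of Myh2, IIx fibres that of Myh1 and IIb fibres that of Myh4, the last being the fastest. The mouse gastrocnemius is mostly a fast muscle, with IIb fibres prevailing in the adult.

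The 71 genes together made up 2.51% of the summed FPKM at E18.5 and 2.72% at PN2. Their share was 7.90% and 7.13% in the PN14 replicates with 7.59% at PN28 and 3.95% in adult muscle. The share was about equal in all 3 peak libraries, and a single gene, Mylpf, made up 78.6% to 86.0% of the set's FPKM in each library. The lowest of the 3 peak libraries ranged from 1 to 32367 FPKM over the 71 genes, with a median of 6.77; 8 genes reached 100 FPKM and 45 stayed under 10. The ratio that defined the peak had a median of 1.76 and ran from 1.5 to 18.7. It reached 2 in 22 genes and 5 in 4 genes. The limiting libraries were most often PN28, the lowest of the 3 in 54 genes, and the Adult, the highest of the others in 36 genes, followed by PN2 in 30 and E18.5 in 5.

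**Figure D1:**
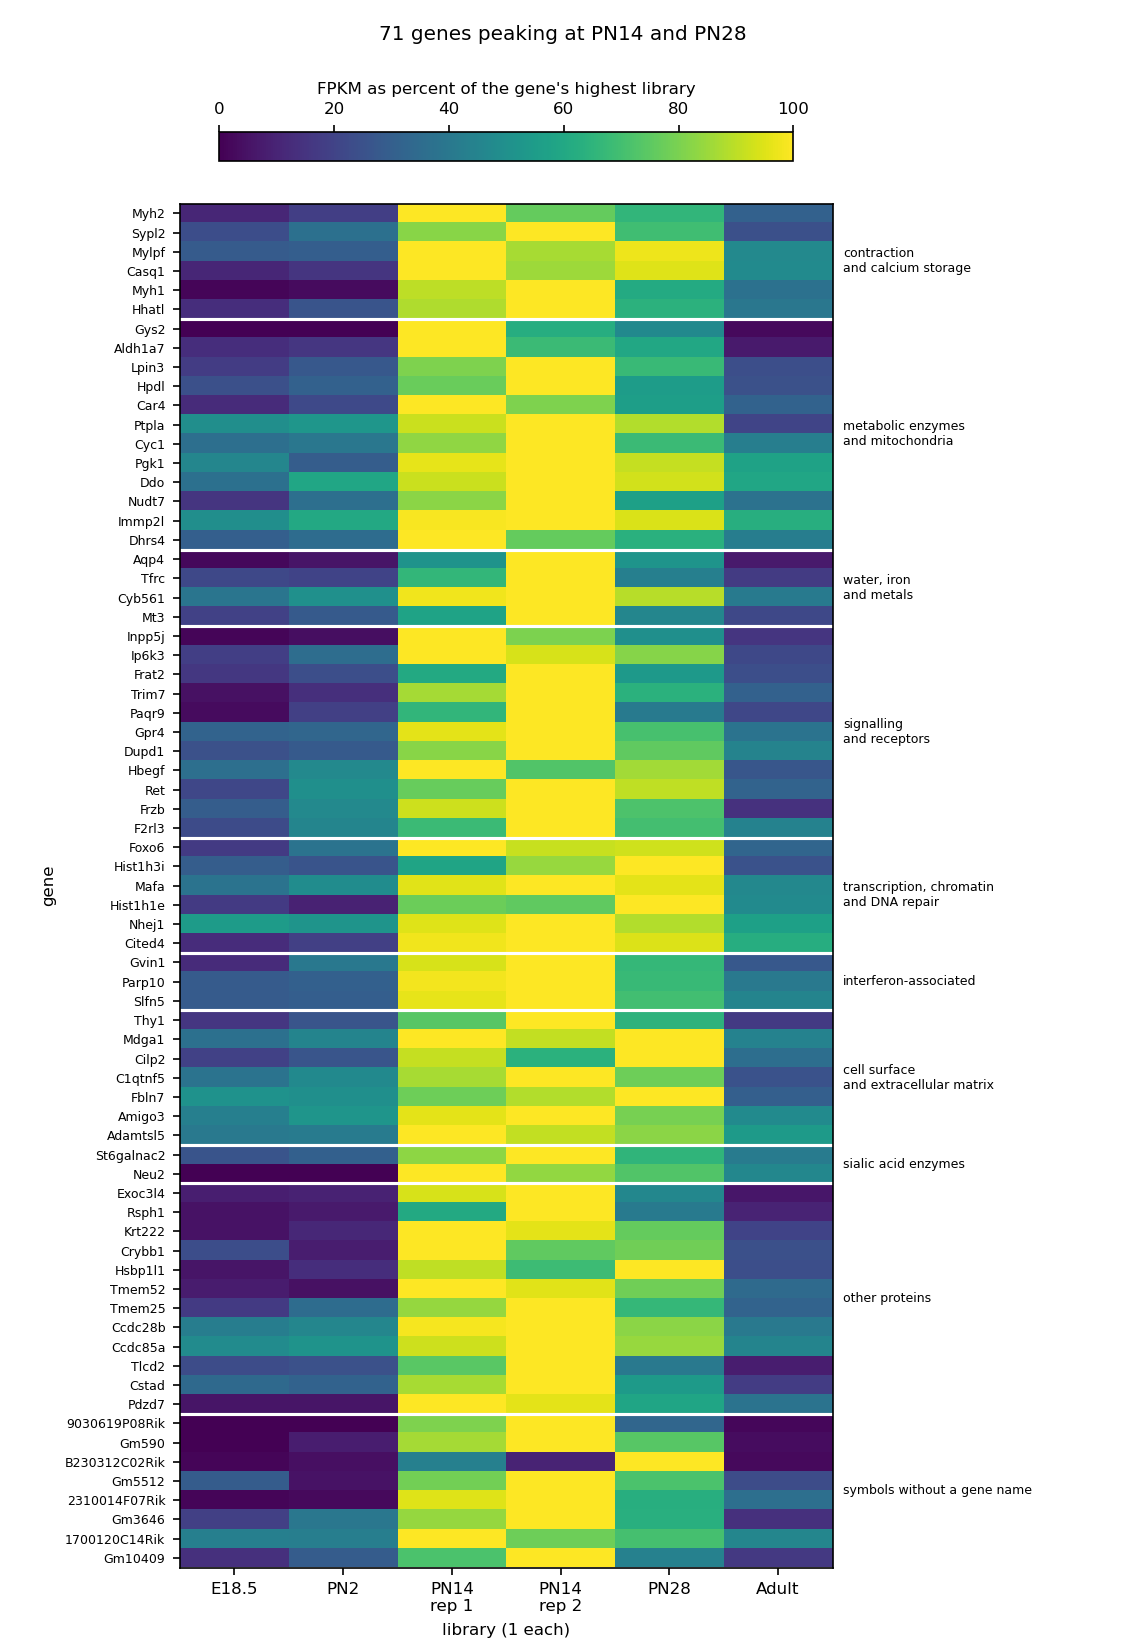
FPKM of the 71 genes (rows, grouped by role and ordered by peak ratio within a role) in the 6 libraries (columns), as percent of each gene's highest library. PN14 replicate 2 was the highest library of 46 genes, PN14 replicate 1 of 18 and PN28 of 7, and the E18.5 and PN2 columns are dark for Gys2, Neu2, Myh1 and Pdzd7.

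Nearest inside the ratio threshold were F2rl3 (1.53 against 1.02 FPKM), Dhrs4 (22.4 against 14.9) and Immp2l (4.90 against 3.25). Nearest outside were Yipf7 (70.6 against 47.2), Tomm40l (18.3 against 12.2) and Cryab (412 against 280.1). The values on either side of the threshold lay close together.

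The FPKM values carry the balance of each library's RNA with them. TMM normalization, which scales libraries so that most genes keep their level, gave relative scales of 0.689 for both E18.5 and PN2, 1.19 and 0.994 for the PN14 replicates, 1.27 for PN28 and 1.4 for the Adult. With FPKM rescaled in this way the same rule took 118 genes. Of the 71 genes 47 were among them (66.2% of the 71 and 39.8% of the 118). The 24 that were not included Mylpf, Casq1, Myh1, Pgk1, Cyc1, Hhatl, Cited4, Neu2 and Pdzd7. It was the ratio of 1.5, or for Hsbp1l1 the level, that the 24 no longer met. From PN28 to the Adult the log2 difference on the TMM scale was -0.91 for Mylpf, -0.85 for Casq1 and -0.58 for Myh1. The rule had set PN28 at least 1.5 times above the Adult, and their TMM scales of 1.27 and 1.4 are close. A lower Adult value in all 24 was therefore fixed by the choice. The genes with the largest peak ratios, among them Gys2, Aqp4, Exoc3l4 and Krt222, were in both sets, as were Myh2, Sypl2, Tfrc, Ip6k3 and Trim7. On the TMM scale, as log2 of counts scaled to library totals of equal size (CPM) plus 0.1, the 71 genes were higher at PN14 than at PN2 by a median of 2.30, against -0.02 over all genes tested. From PN28 to the Adult their median difference was -0.98, against -0.01.

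**Figure D2:**
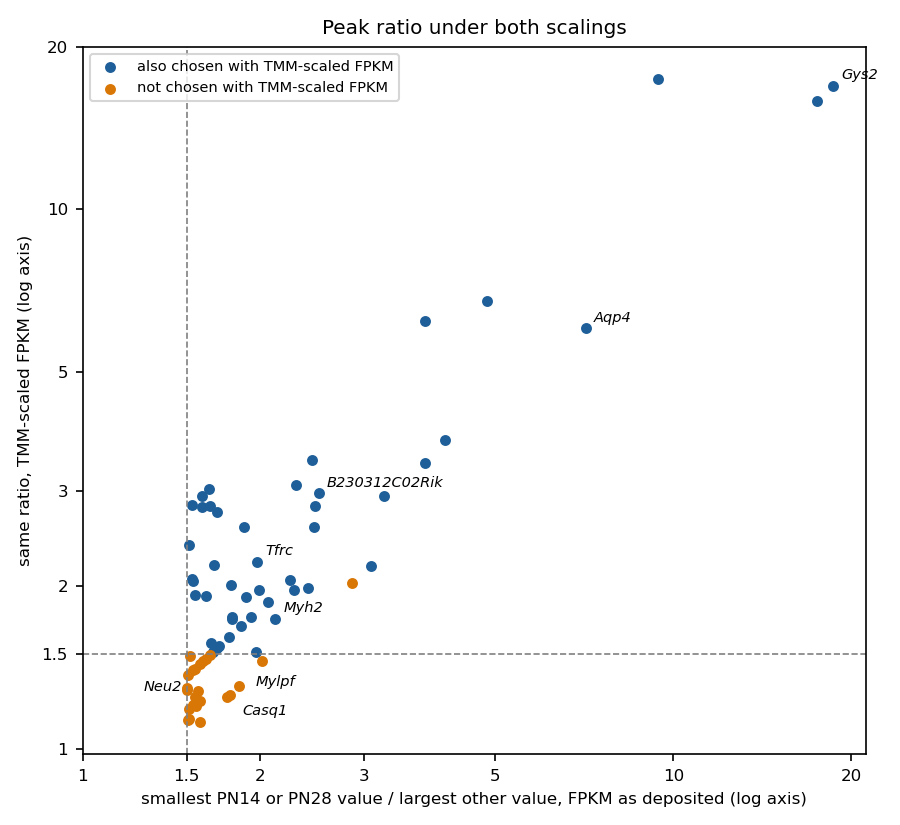
Peak ratio of each of the 71 genes (lowest PN14 or PN28 value over the highest E18.5, PN2 or Adult value) from FPKM as deposited (horizontal, log axis) and from TMM-scaled FPKM (vertical, log axis), with dashed lines at 1.5. The 47 blue genes met the rule on both scales; of the 24 orange genes Hsbp1l1, at a ratio of 2.86, missed it by its level rather than its ratio.

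Genes of contraction and of the calcium store were the most abundant of the set. Mylpf, the regulatory light chain of fast myosin, was at 10722 FPKM at E18.5, 11142 at PN2, 37263 and 32367 at PN14, 36286 at PN28 and 17586 in adult muscle. Casq1, calsequestrin 1, the calcium-binding protein of the sarcoplasmic reticulum in fast fibres, was at 382, 550.4, 3604, 3076, 3422 and 1731 FPKM in the same order. In both genes the 3 peak libraries lay close together and the Adult stood between them and the perinatal libraries. Sypl2 encodes mitsugumin 29, a membrane protein of the triad where tubule and calcium store meet, and was at 128, 201, 447, 544, 376 and 132 FPKM. In FPKM its Adult level was thus back within the range of E18.5 and PN2, but on the TMM scale it was above both (594 CPM against 283 and 442). Hhatl, a membrane protein of the endoplasmic and sarcoplasmic reticulum, went from 19.3 and 38.9 FPKM before birth and at PN2 to 131, 149 and 95.5 FPKM in the peak libraries and 59.0 in the Adult.

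Myh1 and Myh2 are neighbours on chromosome 11 in the myosin gene cluster (mm9 chr11:67013554-67038078 and chr11:66984529-67011019, both on the plus strand, 2535 bp apart), and both peaked. Myh1 was at 18.9 FPKM at E18.5, 37.8 at PN2, 1238 and 1377 at PN14, 842 at PN28 and 512 in adult muscle. Myh2 was at 81.5, 142, 763, 582, 501.1 and 237 FPKM. Myh1 was below Myh2 at E18.5 and PN2 and above it in every later library. Myh4, which is not in the set, was at 43.9, 81.4, 7179, 6791, 9492 and 12055 FPKM and had its highest level in the Adult. Exons of Myh1, Myh2 and Casq1 overlap annotated genes of the opposite strand in GENCODE M1, and the counting is not stated to use strand, so reads of such partners cannot be told apart.

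Fast fibre genes as a group did not share the peak: 4 of 17 listed genes were in the set (Casq1, Myh1, Myh2 and Mylpf), and 1 of 17, Myh2, with TMM-scaled FPKM. Over the 17 genes the median log2 difference was 2.43 from PN2 to PN14 and 0.22 from PN28 to the Adult on the TMM scale. Tnnt3, fast troponin T, was at 4094, 4617, 18302, 14342, 23400.0 and 27016 FPKM and Actn3, the alpha-actinin of fast fibres, at 61.3, 157.7, 1783, 1359, 2532 and 2736. Both were highest in the Adult, unlike the 4 genes of the set.

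**Figure D3:**
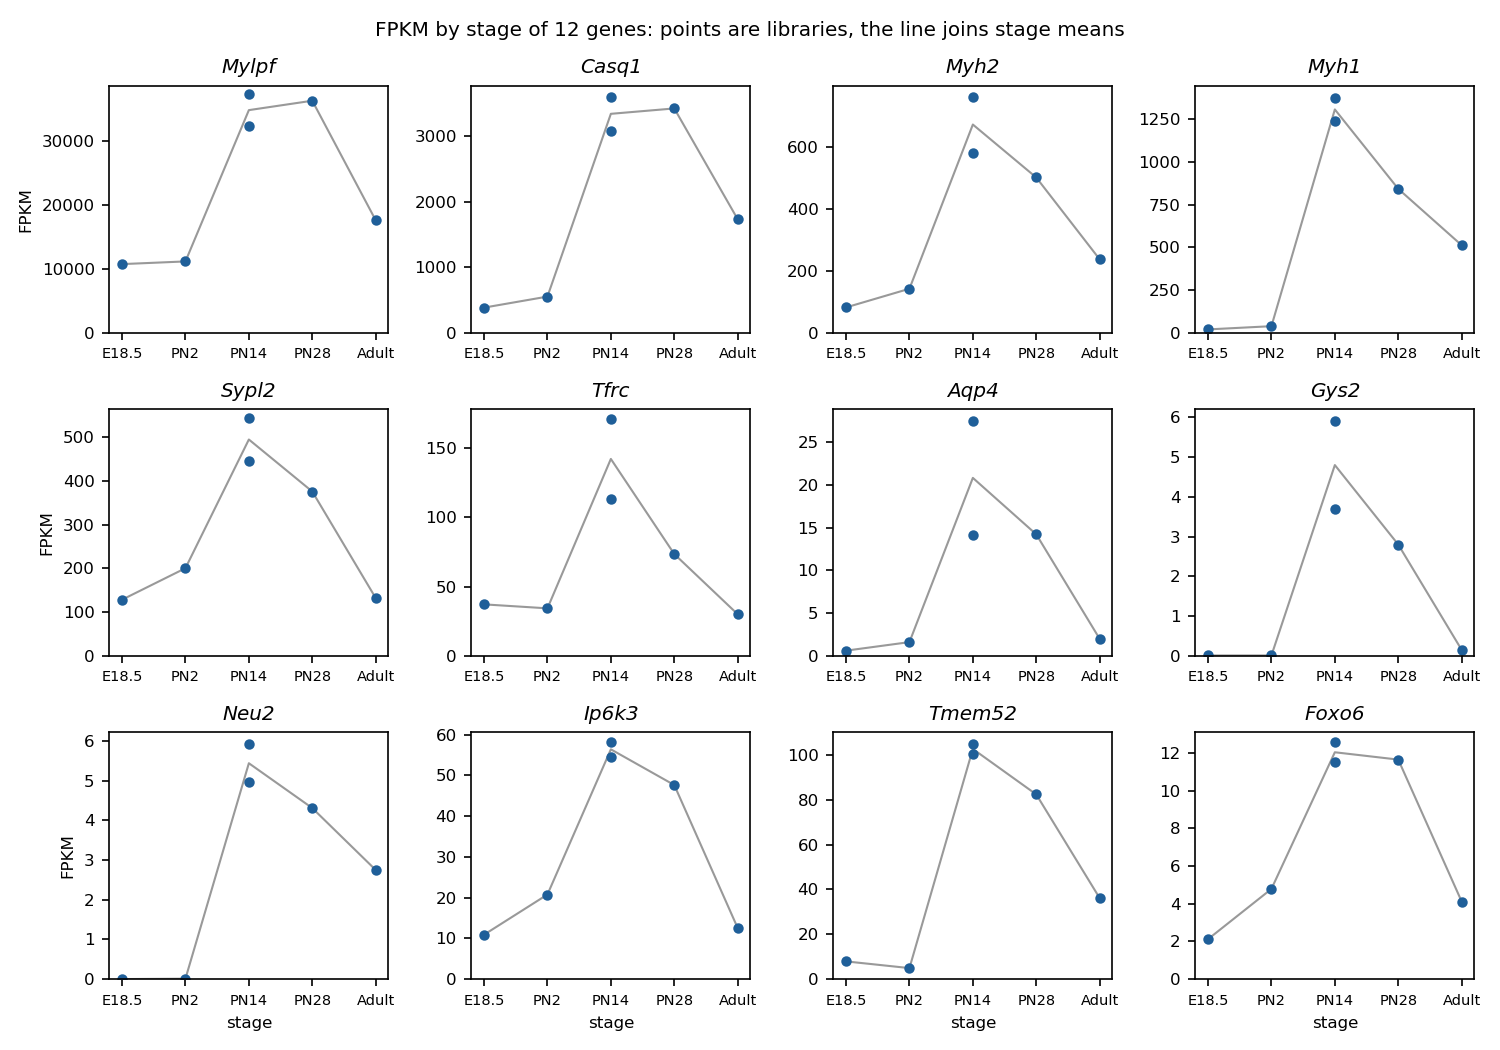
FPKM (vertical axes, each from 0) by stage for 12 of the 71 genes; each point is 1 library, with 2 at PN14, and the grey line joins the stage means. Mylpf and Casq1 held their PN14 level at PN28, Myh1, Sypl2 and Tfrc were lower at PN28 than in either PN14 replicate, and Gys2 and Aqp4 were near 0 before PN14.

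The 250 bases before the RefSeq start site (GRCm38.p6) are printed for the contractile and calcium-store genes Mylpf, Casq1, Sypl2, Myh1 and Myh2 and for the muscle kinase gene Ip6k3, because the E box CAGCTG, a sequence that myogenic factors such as MyoD can bind, was the motif whose share differed by the most percentage points between the set and all promoters. Against the promoters of genes with at least 1 FPKM at PN14 and PN28, GGGCGG differed by more (38.3% against 61.6%) than the E box (29.8% against 11.8%). These 6 were chosen after their values and motifs were seen. Each reads 5′ to 3′ on the strand of the gene, and capitals mark, on either strand, this E box, the MEF2 motif and the TATA and CCAAT boxes, while matches to the other motifs searched stay in lower case.
Mylpf: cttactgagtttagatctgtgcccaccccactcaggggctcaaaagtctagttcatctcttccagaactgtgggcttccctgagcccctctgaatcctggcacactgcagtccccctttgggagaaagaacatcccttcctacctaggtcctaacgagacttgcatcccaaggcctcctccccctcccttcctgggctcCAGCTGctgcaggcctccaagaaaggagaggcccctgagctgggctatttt
Casq1: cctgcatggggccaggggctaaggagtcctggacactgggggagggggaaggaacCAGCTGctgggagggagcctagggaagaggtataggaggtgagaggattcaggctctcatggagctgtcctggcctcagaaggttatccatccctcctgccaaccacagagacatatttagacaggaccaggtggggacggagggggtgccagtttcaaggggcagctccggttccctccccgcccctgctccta
Sypl2: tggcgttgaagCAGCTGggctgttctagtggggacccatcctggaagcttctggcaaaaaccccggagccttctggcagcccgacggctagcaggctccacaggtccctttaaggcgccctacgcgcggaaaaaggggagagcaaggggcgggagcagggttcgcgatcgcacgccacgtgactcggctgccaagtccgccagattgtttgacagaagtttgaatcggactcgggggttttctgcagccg
Ip6k3: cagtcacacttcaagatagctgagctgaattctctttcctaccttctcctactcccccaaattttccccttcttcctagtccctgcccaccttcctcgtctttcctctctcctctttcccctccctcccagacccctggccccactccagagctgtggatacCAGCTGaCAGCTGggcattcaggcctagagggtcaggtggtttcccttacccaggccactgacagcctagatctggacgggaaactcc
Myh1: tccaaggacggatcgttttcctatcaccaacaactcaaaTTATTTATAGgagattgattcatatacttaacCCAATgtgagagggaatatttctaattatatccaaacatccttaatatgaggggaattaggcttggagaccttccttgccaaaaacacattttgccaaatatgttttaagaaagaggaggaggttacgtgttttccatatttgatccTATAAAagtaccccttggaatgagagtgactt
Myh2: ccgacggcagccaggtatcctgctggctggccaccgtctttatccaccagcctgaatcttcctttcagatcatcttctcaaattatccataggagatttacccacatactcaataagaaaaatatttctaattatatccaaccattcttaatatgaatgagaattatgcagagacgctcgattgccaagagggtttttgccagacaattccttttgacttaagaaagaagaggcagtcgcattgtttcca
They lie at chr7:127211358-127211607 (Mylpf, plus strand), chr1:172219896-172220145 (Casq1, minus strand), chr3:108226600-108226849 (Sypl2, minus strand), chr17:27167765-27168014 (Ip6k3, minus strand), chr11:67199852-67200101 (Myh1, plus strand) and chr11:67170777-67171026 (Myh2, plus strand). Mylpf, Casq1 and Sypl2 each hold 1 CAGCTG and Ip6k3 holds 2. Myh1 holds a MEF2 match with a reversed TATAAA inside it, then the CCAAT box and a second TATAAA between 32 and 27 bases before the start. Myh2 holds none of these letters in this window.

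A promoter entry was found for 47 of the 71 genes. CAGCTG was present in 14 of the 47 (29.8%), against 12.8% of 27025 promoters of the table and 11.8% of the 8083 promoters of genes with at least 1 FPKM at PN14 and PN28. The 14 were Adamtsl5, C1qtnf5, Casq1, Crybb1, Cstad, Dhrs4, Frzb, Immp2l, Ip6k3, Lpin3, Mylpf, Pdzd7, Slfn5 and Sypl2. The MEF2 motif was in 5 of 47 (10.6%; Cstad, Dupd1, Gm3646, Hist1h3i and Myh1), against 3.01% of all and 1.94% of the expressed. TATAAA was in 14.9%, against 13.0% and 6.35%, and GGGCGG in 38.3%, against 32.9% and 61.6%. CCAAT was in 38.3%, against 34.5% and 36.4%, and CACGTG in 6.38%, against 6.05% and 8.81%. AAGGTCA was in 6.38%, against 4.05% and 2.68%, and TGACGTCA (1.62% of all) and the CArG motif (1.4% of all) were in none of the 47. Both strands were searched, and the shares were not tested.

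Metabolic genes formed another group of 12, assigned by symbol after the members were known. Gys2, the glycogen synthase isoform known from liver, had the largest peak ratio of the set. It was at 0.01 FPKM at E18.5 and at PN2, 5.91 and 3.69 at PN14, 2.80 at PN28 and 0.15 in adult muscle. In counts this was 3, 6, 1934, 1450, 1084 and 56, so that the lower PN14 replicate was 732-fold above E18.5 on the TMM scale, with a 95% counting interval from 250.1 to 3555 (exact, counting error only) because E18.5 held so few counts. It was the only one of 26 listed genes of glycogen and glucose handling in the set. Over those 26 genes the median log2 difference from PN28 to the Adult was 0.48, the other direction from Gys2.

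Pgk1, the phosphoglycerate kinase of glycolysis, was at 486, 312, 1019, 1060 and 966 FPKM from E18.5 to PN28 and at 612 in the Adult. Cyc1, cytochrome c1 of respiratory complex III, was at 309.8, 334, 704, 846, 577 and 361 FPKM, and no other of the 33 listed genes of oxidative phosphorylation met the rule. With TMM-scaled FPKM Cyc1 did not meet it, and Atp5g3 was the only gene of that list that did. Ptpla, a dehydratase of very long chain fatty acid synthesis, was at 102, 108, 189, 205, 182 and 42.2 FPKM. Ptpla was lowest in the Adult, whereas Pgk1 and Cyc1 were lowest before or just after birth. Nudt7 and Dhrs4 encode peroxisomal enzymes and had peak levels of at least 17.3 and 22.4 FPKM. Lpin3, a phosphatidate phosphatase, and Aldh1a7, an aldehyde dehydrogenase, reached at least 2.61 and 3.91 FPKM. Ddo, D-aspartate oxidase, Car4, a carbonic anhydrase, and Immp2l, of the inner membrane peptidase of mitochondria, met the rule at peak ratios of 1.55, 1.77 and 1.51. Hpdl completed the group at 1.78.

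Water and iron transport were represented by single genes with large differences. Aqp4, the water channel of the fast fibre membrane, was at 0.61 FPKM at E18.5, 1.61 at PN2, 14.2 and 27.5 at PN14, 14.2 at PN28 and 1.99 in adult muscle. Tfrc, the transferrin receptor through which cells take up iron, was at 37.2, 34.3, 113, 171, 73.5 and 30.1 FPKM. In FPKM both genes were back near their PN2 level in the Adult library, and in both PN14 replicate 2 stood well above replicate 1. Mt3, a metal-binding metallothionein, reached at least 7.42 FPKM and Cyb561, a transmembrane electron carrier that uses ascorbate, at least 3.56.

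Among 11 signalling genes, Ip6k3, Dupd1 and Trim7 were the most abundant in the peak libraries. Ip6k3, an inositol hexakisphosphate kinase, was at 10.9, 20.8, 58.2, 54.6, 47.6 and 12.5 FPKM in order of stage. Dupd1, a dual-specificity phosphatase of muscle, was at 17.4, 19.8, 57.3, 69.6, 52.7 and 31.2 FPKM. Trim7, an E3 ligase that binds glycogenin, was at 2.55, 7.25, 47.2, 54.5, 34.9 and 17.0 FPKM. In FPKM Ip6k3 returned to the perinatal range in the Adult and Trim7 and Dupd1 did not. On the TMM scale the Adult level of Ip6k3 was above E18.5 and PN2 (39.6 CPM against 16.9 and 32.2). At lower levels, Inpp5j, an inositol polyphosphate 5-phosphatase, was at 0.06, 0.14, 3.89, 3.13, 1.94 and 0.60 FPKM. The group also held Ret, a receptor tyrosine kinase, Hbegf, a ligand of the EGF receptor, Frzb, a secreted Wnt antagonist, Frat2, an inhibitor of the kinase GSK3, the receptors F2rl3 and Gpr4, and Paqr9, with peak ratios from 1.5 to 2.25.

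The transcription factors of the set were Foxo6 and Mafa, with the coregulator Cited4. Foxo6, a forkhead factor, was at 2.12, 4.79, 12.6, 11.5, 11.7 and 4.12 FPKM. Mafa, a bZIP factor known from pancreatic beta cells, was at 15.2, 19.3, 38.0, 39.8, 38.2 and 18.6 FPKM. In both genes the 3 peak libraries differed little among themselves. Cited4 was at 2.61, 3.94, 20.3, 20.7, 19.6 and 12.9 FPKM. Hist1h1e, a linker histone, and Hist1h3i, a core histone, were highest at PN28 (8.97 and 2.82 FPKM). The libraries were made from polyA RNA, and transcripts of such histone genes mostly lack a polyA tail.

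Genes associated with interferon were Gvin1, an interferon-inducible GTPase, Parp10, an ADP-ribosyltransferase, and Slfn5, of the Schlafen family, with at least 1.52, 3.22 and 9.06 FPKM in the peak libraries. None of the 34 listed interferon-induced genes was in the set. With TMM-scaled FPKM 5 of the 34 met the rule (Gbp3, Irf7, Isg15, Rtp4 and Xaf1). Thy1, a surface glycoprotein of fibroblasts and nerve cells, was at 4.43, 7.45, 20.8, 28.2, 18.2 and 4.83 FPKM and was the most sharply peaked of 7 genes of the cell surface and matrix. The others were Mdga1, Amigo3, Cilp2, Fbln7, Adamtsl5 and C1qtnf5, with peak ratios from 1.52 to 2.02.

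Several less studied genes had some of the largest peak ratios. 9030619P08Rik was at 0.00, 0.02, 4.25, 5.28, 1.75 and 0.10 FPKM, with no count at E18.5 and 2 at PN2. On the TMM scale its PN14 level was at least 311-fold higher than E18.5 when the latter is set to a floor of 3 counts. It was 463-fold above PN2 on that scale, with a counting interval from 127 to 3832. Gm590 was at 0.00, 0.14, 1.54, 1.78, 1.32 and 0.06 FPKM, at least 60.1-fold higher at PN14 than at E18.5, where it had no count. Exoc3l4, named for its likeness to an exocyst subunit, was at 0.54, 0.60, 5.91, 6.29, 2.90 and 0.39 FPKM. All 3 genes were under 0.4 FPKM in the Adult. On the TMM scale 9030619P08Rik was still 13.4-fold above PN2 there (12 counts against 2, counting interval from 2.98 to 123). Krt222, related to keratins, was at 0.36, 0.80, 7.21, 6.92, 5.52 and 1.45 FPKM, and Rsph1, known as a radial spoke protein of cilia, at 0.25, 0.37, 3.18, 5.25, 2.14 and 0.52. Crybb1, a crystallin, and Hsbp1l1 were lower, at 2.25 to 2.98 and 1 to 1.46 FPKM in the peak libraries. Tmem52, a small membrane protein, was the most abundant of this kind, at 7.89, 4.90, 105, 100.3, 82.4 and 36.1 FPKM. Neu2, the cytosolic sialidase, was at 0.00, 0.01, 5.92, 4.96, 4.31 and 2.75 FPKM. It had no count at E18.5 and 2 at PN2. On the TMM scale its PN14 level was at least 578-fold higher than E18.5 and 860-fold above PN2, with a counting interval from 237 to 7109. Neu2 and Tmem52 kept a sizeable level in the Adult. The remaining genes were Tmem25, Ccdc28b, Ccdc85a, Tlcd2, Cstad, Pdzd7, the sialyltransferase gene St6galnac2, the DNA repair gene Nhej1, and Gm5512, 2310014F07Rik, Gm3646, 1700120C14Rik and Gm10409, with peak ratios from 1.52 for Gm10409 to 2.47 for Gm5512.

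The PN14 replicates give the only measure of spread. They differed by a median of 1.19-fold over the 71 genes, against 1.20-fold over 10948 genes with at least 1 FPKM in both. The difference passed 1.5-fold in 8 of the 71 (11.3%, against 12.2% of the 10948): B230312C02Rik, Aqp4, Mt3, Rsph1, Frat2, Gys2, Paqr9 and Tfrc. B230312C02Rik, annotated as a processed transcript, was at 0.20 FPKM at E18.5, 0.57 at PN2, 6.31 and 1.43 at PN14, 14.4 at PN28 and 0.34 in adult muscle. It differed 4.41-fold between the PN14 mice, the widest gap in the set. As mean and SD (n = 2), PN14 levels were 34815 ± 3462 FPKM for Mylpf, 3340.0 ± 373 for Casq1, 1307 ± 98.2 for Myh1, 672 ± 128 for Myh2, 495 ± 68.6 for Sypl2, 142 ± 40.8 for Tfrc, 20.8 ± 9.47 for Aqp4 and 4.80 ± 1.57 for Gys2.

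**Figure D4:**
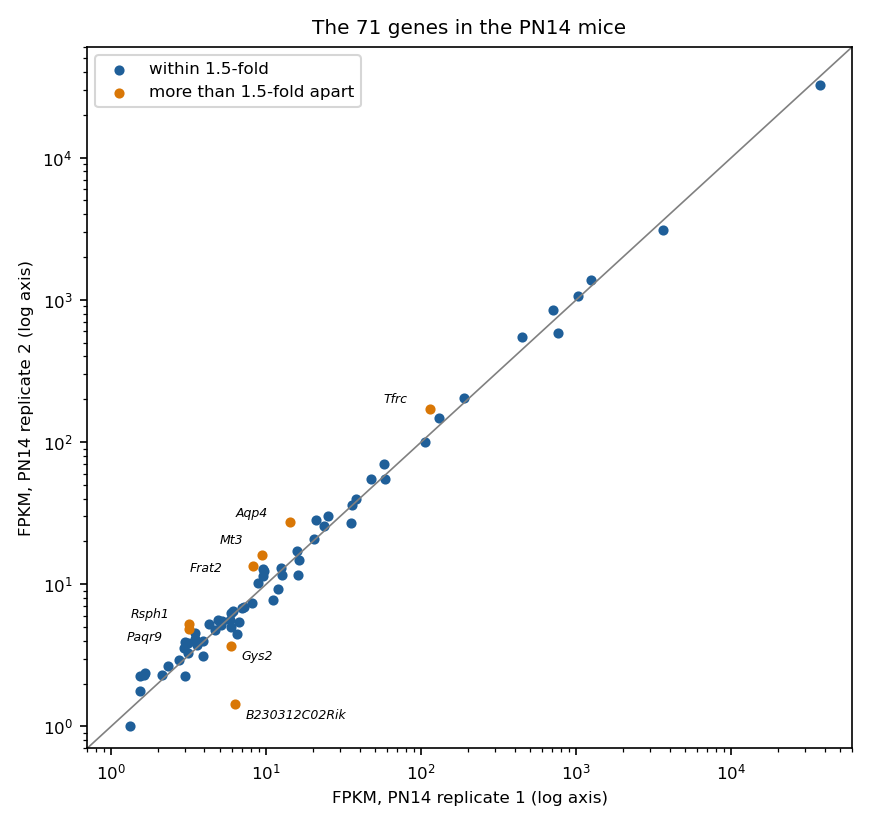
FPKM of the 71 genes in PN14 replicate 1 (horizontal) and replicate 2 (vertical), both on log axes; the line marks equal values and the 8 orange genes differ by more than 1.5-fold. B230312C02Rik and Gys2 were higher in replicate 1 and the other 6 in replicate 2.

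Summed FPKM of markers of other cells also differed between the PN14 mice, in either direction. The 19 Schwann cell and myelin markers summed to 276, 701, 370, 1317, 319 and 261 FPKM in order of stage, highest in PN14 replicate 2. The 15 endothelial markers summed to 536, 514, 543, 737, 436 and 294 FPKM, and the 14 fibroblast and tendon markers to 7442, 6171, 1963, 2307, 2142 and 709. With TMM scaling the fibroblast and tendon sums of the PN14 replicates were close. Erythroid markers went the other way, at 2211 FPKM in PN14 replicate 1 and 1225 in replicate 2. The adipocyte and the bone and cartilage sums were also higher in replicate 1, and those of the remaining lists in replicate 2. None of the 10 marker lists of other cell types held a gene of the set; with TMM-scaled FPKM the endothelial genes Emcn, Esam and Gpihbp1 met the rule. The part of other cells in the peak was not tested, and in whole muscle fewer cells of a type and less RNA per cell cannot be told apart. Without PN14 replicate 2 the rule took 80 genes, and without replicate 1 it took 77. Leaving out a peak library can only loosen the rule, so all 71 stayed in both cases by construction.

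The levels at PN14 and PN28, within the peak, were compared on the expected counts with the edgeR quasi-likelihood test. The rule took the smallest value over these libraries, which leaves out genes that were much lower at either stage, so the counts below describe the chosen genes and nothing about the set is read from them. At an adjusted p under 0.05 none of the 71 was called, and the lowest adjusted p was 0.490; over all genes 3 of 16882 (0.0178%) were called. At an unadjusted p under 0.05, 5 of the 71 were lower at PN28 (Exoc3l4, 9030619P08Rik, Tlcd2, Paqr9 and Nudt7) and 3 higher (Hist1h1e, Fbln7 and B230312C02Rik), against 3.99% and 4.42% of all genes. The log2 differences ran from -1.21 for 9030619P08Rik to 2.05 for B230312C02Rik (SE 0.806), with a median of -0.16. In FPKM, both PN14 replicates were above PN28 in 54 genes and both below in 7; in TMM-scaled CPM these were 36 and 16. The edgeR exact test and DESeq2 called none of the 71, against 258 and 136 of all 16882 genes. With library size alone as the scale the quasi-likelihood test called 1 of the 71, against 262 of all 16882 genes. It was B230312C02Rik, higher at PN28 by 1.90 (adjusted p = 0.00741), and the PN14 replicates of this gene differ widely as given above.

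The earliest interval came before the peak, and the rule held both of its libraries under the same limit. The counts below therefore describe the 71 genes, and no excess over all genes is read from them. From E18.5 to PN2 none of the 71 was called by the edgeR quasi-likelihood test, with 5 of 16882 genes (0.0296%) called overall and a lowest adjusted p in the set of 0.0930. At an unadjusted p under 0.05, 20 of the 71 (28.2%) were higher at PN2 and 4 lower, against 3.71% and 2.93% of all genes. The median log2 difference was 0.46 over the 71 genes and -0.01 over all genes. The largest differences with a small error were those of Paqr9 (2.59, SE 0.359), Gvin1 (1.67, SE 0.235) and Trim7 (1.51, SE 0.203), higher at PN2, and of Gm5512, an annotated pseudogene (-2.52, SE 0.242). In FPKM 58 of the 71 were higher at PN2 than at E18.5. The E18.5 and PN2 libraries had almost the same TMM scale, so this order did not depend on it, but each is 1 pool of mice. Other tests called a few: the edgeR exact test 9 genes (348 of all 16882) and DESeq2 6 (165 of 16882). The quasi-likelihood test called 4 with library size alone (241 of 16882) and 4 without a filter on low counts (97 of 19590). Gm5512, Paqr9 and Trim7 were in each of these sets.

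**Figure D5:**
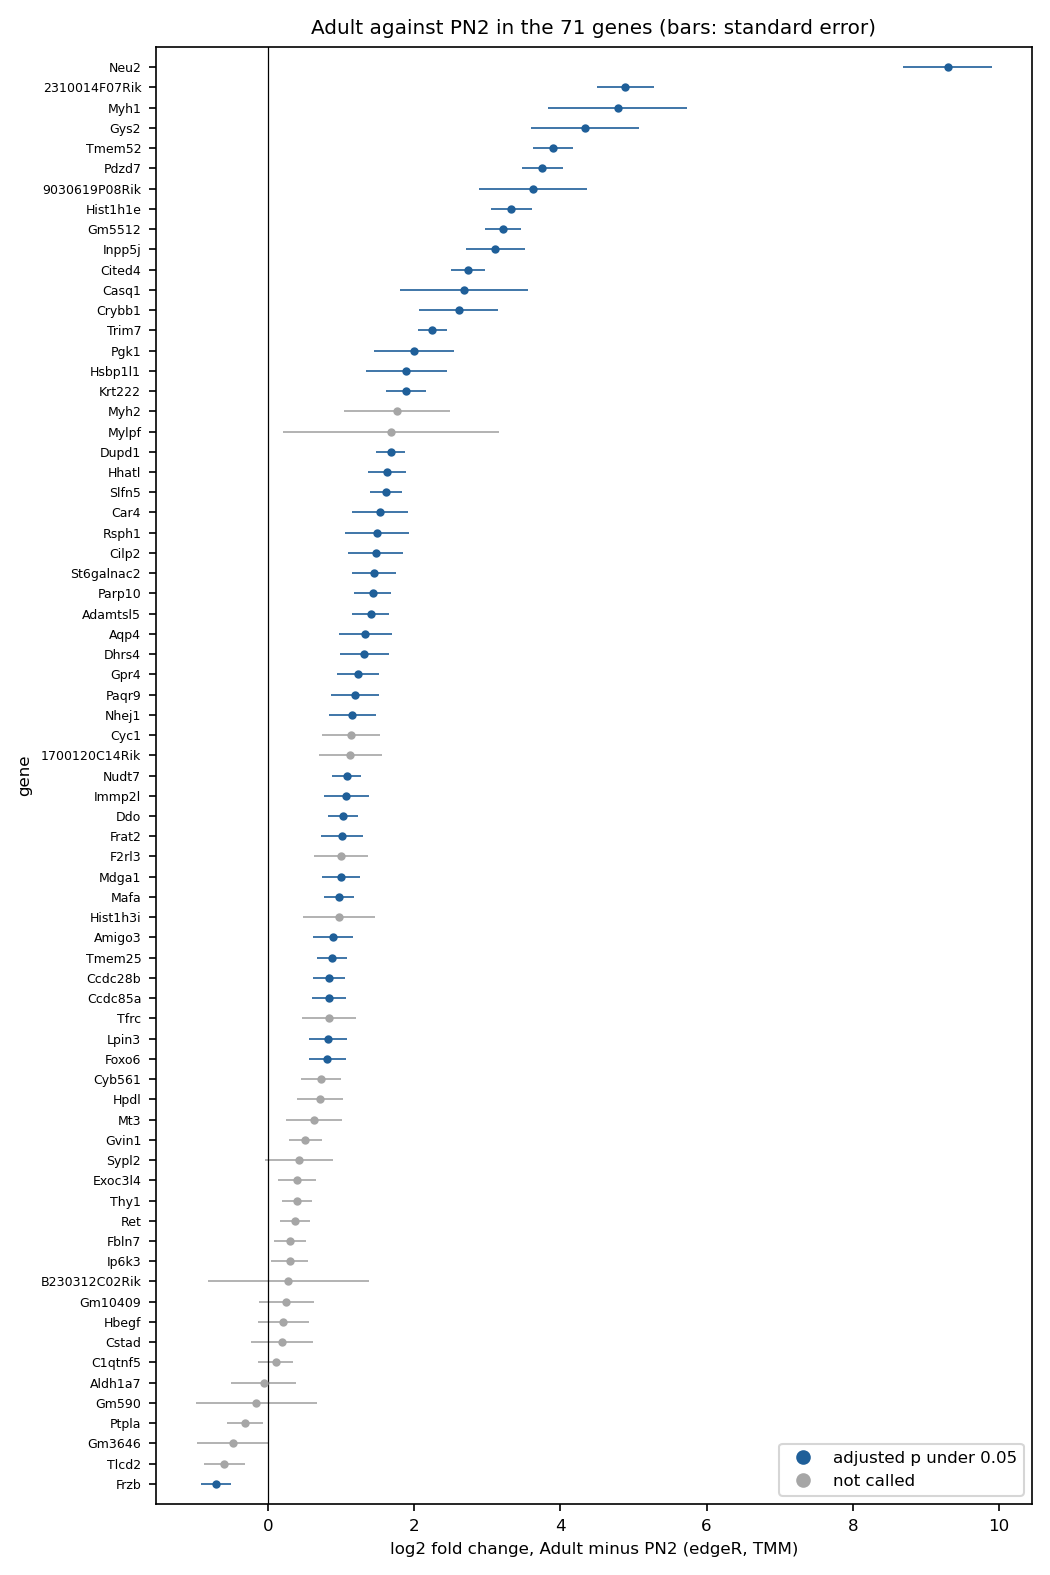
Log2 fold change of the 71 genes from PN2 to the Adult in the edgeR fit with TMM scaling (horizontal axis) with its standard error (bars), sorted; blue genes passed an adjusted p of 0.05. Neu2 stands furthest to the right at 9.30, and Frzb at -0.71 is the one called gene on the left.

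The Adult was set against PN2 to compare the levels on either side of the peak. The rule held both libraries under the same FPKM limit, which draws their difference in FPKM towards 0, and TMM adds about 1.02 to every gene's log2 difference, so the counts describe the 71 genes and no excess over all genes is read from them. By the edgeR quasi-likelihood test 44 of the 71 (62.0%) were called, against 49.5% of the 16882 genes tested. Of these 43 (60.6%) were higher in the Adult, against 25.1% of all genes, and 1 was lower, against 24.5%. The median log2 fold change was 1.08 over the 71 genes and -0.05 over all genes. The leading calls were Neu2 (9.30 ± 0.607 SE), 2310014F07Rik (4.89 ± 0.389), Tmem52 (3.90 ± 0.273), Pdzd7 (3.75 ± 0.283) and Gm5512 (3.22 ± 0.249), each at an adjusted p of 0.00189. For Neu2 the PN2 library held 2 counts, so its fitted value depends on the prior count. On the TMM scale its ratio was 688-fold (616 counts against 2), with a counting interval from 190 to 5695.

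Among the fibre genes Myh1 (4.79 ± 0.95 SE, adjusted p = 0.00986), Casq1 (2.68 ± 0.876, adjusted p = 0.0471) and Hhatl (1.63 ± 0.264, adjusted p = 0.00537) were called higher in the Adult than at PN2. The edgeR quasi-likelihood test did not call Mylpf (1.68, adjusted p = 0.375), Myh2 (1.76 ± 0.724 SE, adjusted p = 0.0893) or Sypl2 (0.43, adjusted p = 0.478). The edgeR exact test called Mylpf (adjusted p = 0.0011) and Myh2 (adjusted p = 0.000914), and so did DESeq2 (adjusted p = 9.05e-06 and 1.77e-05). For the counts by list and role that follow, 25.1% of all genes tested were called higher and 24.5% lower. Of the 17 fast fibre genes 9 were called higher and none lower, and of the 27 calcium handling genes 20 were higher and 2 lower. Among metabolic genes of the set 8 of 12 were called higher, led by Gys2 (4.34 ± 0.741 SE, adjusted p = 0.00623) and with Pgk1 at 2.00 (adjusted p = 0.0273). In the lists around them 21 of 26 glycogen and glucose genes and 22 of 33 oxidative phosphorylation genes were higher, with 2 lower in each. With library size alone 21 of the glycogen and glucose genes were higher and 3 lower, and 7 of the oxidative phosphorylation genes higher and 2 lower. The fast fibre list then had 14 higher and the calcium handling list 15 higher and 2 lower. Over all genes 9073 of 16882 were called in either direction on that scale, with a median log2 difference of -1.07 over all genes tested. Their split by direction is not given here. Of the signalling genes 6 of 11 were higher, Trim7 by 2.25 and Inpp5j by 3.11 among them, and Frzb was lower (-0.71 ± 0.206 SE, adjusted p = 0.0334), a call that DESeq2 did not make (adjusted p = 0.0708). Frzb was at 7.51 FPKM at E18.5, 12.04 at PN2, 23.6 and 25.5 at PN14, 18.4 at PN28 and 3.63 in adult muscle. Of the 6 genes of transcription, chromatin and DNA repair 5 were higher, among them Hist1h1e (3.33) and Cited4 (2.74), and of the 4 genes of water, iron and metals 1 was, Aqp4 (1.33 ± 0.361 SE, adjusted p = 0.0264).

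These calls depended on the scale. With library size alone the median over all genes moved from -0.05 to -1.07 and that of the 71 genes from 1.08 to 0.06, since the change of scale moves every gene by the same amount. On that scale 17 of the 71 were called, 14 higher and 3 lower, against 9073 of 16882 genes called in either direction. The 14 were all among the 43: 2310014F07Rik, 9030619P08Rik, Casq1, Cited4, Gm5512, Gys2, Hist1h1e, Inpp5j, Myh1, Neu2, Pdzd7, Pgk1, Tmem52 and Trim7. The 3 lower were Frzb, Ptpla and Tlcd2. Another 10 of the 43, among them Mafa, Foxo6, Ddo and Frat2, had a lower value in the Adult than at PN2 with library size alone. In FPKM the Adult was above PN2 in 37 of the 71 genes, above both E18.5 and PN2 in 36 and below both in 14.

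In the mm9 annotation (GENCODE M1) 67 of the 71 symbols were found, 65 as protein-coding genes. Their median span was 13771 bp, against 15928 bp over 20965 matched genes, and their median longest coding length was 1080 nt, against 1227 nt. Chromosome 11 held 11 of the 67 (16.4%), against 7.82% of all matched genes. Only 2 pairs lay within 100 kb of each other, Myh1 with Myh2 and C1qtnf5 with Thy1 (58666 bp apart). Casq1 lies at chr1:174140025-174150026 on the minus strand, Mylpf at chr7:134355122-134357812 on the plus strand, Gys2 at chr6:142371133-142421629 on the minus strand and Tfrc at chr16:32609006-32632880 on the plus strand. Exons of 10 genes of the set overlap a gene of the opposite strand and those of 4 a gene of the same strand, among them Parp10 with Plec and C1qtnf5 with Mfrp, so that the counts of these genes may hold reads of their partners. Myh1 and Myh2, the histone genes, Gvin1, Aldh1a7, Pgk1 and the pseudogene Gm5512 have close copies in the genome, and the split of shared reads among such copies is uncertain.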

How the data were processed

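PolyA RNA of gastrocnemius muscle was sequenced in 6 libraries from 5 stages. Per the labels, reads were aligned to mm9 with TopHat2 2.0.5 and quantified with RSEM. The deposited expected counts per gene, made by the authors, are not normalized, and the deposited FPKM values, also made by the authors, are scaled to the length of the gene and the total on genes of each library. Library totals on genes lay between 125402932 and 157868359, and 3 counts correspond to 0.0190 to 0.0239 CPM. Folds against a library without counts are bounds against 3 counts per library, and those against 1 to 3 counts carry exact 95% intervals from the binomial distribution. Both are on the TMM scale and cover counting error only.

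The 71 genes and the gene lists were chosen with earlier results of these data known. Genes were named by fixed rules: the 15 largest peak ratios, the 15 highest levels, members of the lists, the leading calls (at most 5 a direction) and the genes nearest the threshold. Roles were assigned by symbol after the members were known, and genes named by role fall outside the rule.

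Expected counts were rounded and fitted in R 4.3.3 with edgeR 4.0.16 (TMM, filterByExpr by stage, quasi-likelihood test, all libraries in 1 fit). Of all entries 16882 were tested, the 71 among them, and p-values were adjusted over all of them by Benjamini-Hochberg, with calls at an adjusted p under 0.05. The PN14 pair gives the fit its 1 residual degree of freedom, with 4.86 prior degrees of freedom and a common coefficient of variation of 0.188. The other stages are thus assumed to vary as PN14 does. In a self-test on generated counts, the test recovered 200 of 200 genes set to differ between PN14 and PN28, with 208 calls among 16471 genes. The set differences were large and placed only in genes above a level limit. Every gene was given the same spread and no other stage difference, so this recovery does not carry over to the measured counts. Recovery of differences of the size measured among the 71 genes was not tested. DESeq2 1.42.0, the edgeR exact test, other scalings, filters and thresholds were alternatives. Promoters came from a RefSeq table (GRCm38.p6), of which the 250 bases before the start were searched. Coordinates of genes are mm9. Python 3.11.15 was used with scipy 1.17.1, matplotlib 3.10.9, pandas 2.3.3 and numpy 2.4.6.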

Additional observations from a re-analysis of the deposited data

How the results depend on the processing

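The number of genes that met the rule was 118 with FPKM rescaled by TMM or by DESeq2 size factors, 22 at a ratio of at least 2, 209 at the lower ratio tried, 38 at a level of at least 5 FPKM, 116 at 0.1 FPKM and 217 when PN28 was not used. Chosen after seeing the data, leaving out the Adult gave 814 genes and leaving out PN2 gave 102. It was 85 without E18.5, 79 with the mean of the PN14 pair and 77 to 80 without a PN14 replicate. Among the 71 genes, calls from PN14 to PN28 were 1 with library size alone and 0 in the other alternatives. Over all genes tested these were 262 and 3 to 258. Calls from E18.5 to PN2 were 4 with library size alone, 4 without a filter, 6 with DESeq2 and 9 with the exact test. Over all genes these were 241, 97, 165 and 348. Calls from PN2 to the Adult were 17 with library size alone and 38 to 47 in the others. Over all genes these were 9073 and 6614 to 8901. Genes tested were 16882, or 19590 without a filter and 13117 at a mean of at least 1 CPM. The median difference from PN2 to PN14 was 1.91 with a pseudocount of 1 CPM, 1.64 with library size alone and 2.21 to 2.31 without a PN14 replicate, and that from PN28 to the Adult -0.87, -1.11 and -0.98 to -0.97 in the same order. The cause of these changes was not tested. No paired analysis was possible because only PN14 has replicates, and without 1 of them no residual degrees of freedom remain, so no test was run there. Ratios to levels near 0.01 FPKM rest on the rounding of FPKM to 2 decimals.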

Other observations

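With the same limits, 63 genes had a trough at PN14 and PN28, against 71 with a peak. With TMM-scaled FPKM these were 37 and 118, so both numbers moved with the scaling, in opposite directions. Musk, the receptor kinase of the neuromuscular junction, was at 10.54 FPKM at E18.5, 11.6 at PN2, 3.95 and 4.30 at PN14, 5.93 at PN28 and 11.1 in adult muscle. Srebf1, a regulator of lipid synthesis, was at 19.3, 13.3, 6.38, 6.85, 7.84 and 17.96 FPKM in the same order. Spp1, osteopontin, was at 75.4, 35.7, 0.31, 0.22, 0.79 and 2.61 FPKM. With TMM-scaled FPKM Musk and Srebf1 no longer met these limits, and Spp1 still did. On that scale PN28 stood above E18.5 for Musk and above PN2 for Srebf1. These genes were named after their values were seen, and the trough was not tested.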
